A study of Mus musculus with 11 samples.

Results

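The genes of the transforming growth factor-beta (TGF-beta) and bone morphogenetic protein (BMP) pathway were examined in im-scWAT, a line of preadipocytes derived from mouse inguinal subcutaneous white adipose tissue and immortalized in culture. Members were chosen by symbol, as the coding genes whose names begin with Tgfb, Tgfbr, Bmp or Smad and a number, with Bmpr, Acvr or Inhb, or with Gdf or Grem and a number, together with the follistatin genes (Fst, Fstl), Tgfbi, Nog and Chrd. This gave 59 members among 21452 coding genes. RNA-seq had been performed on 11 samples of this line, all deposited as FPKM, the number of fragments on a transcript scaled by its exon length and by the depth of the sample.

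In 6 untransduced samples, cells were taken at days 0, 4 and 8 of adipocyte differentiation. Differentiation was induced with indomethacin, dexamethasone, 3-isobutyl-1-methylxanthine, insulin and T3, and rosiglitazone (ROS), a PPARγ agonist used to obtain beige in place of white adipocytes, was added at 0.5 μM from induction on or left out throughout. For this line the study's methods keep ROS in the medium to day 8, whereas the protocol given with the samples describes a change to medium without it for the last day unless stated otherwise. The samples were grouped only by whether ROS had been given. Days 4 and 8 had 1 sample with ROS and 1 without. Both day 0 samples were preadipocytes at induction, 1 labelled for each arm, and were used as replicates. The other 5 samples were cells at day 8 with ROS that carried a short hairpin RNA against the mouse histone demethylase Jmjd1a and a retrovirus for human JMJD1A. Of these, 2 received the wild-type protein (WT A and WT B), and 1 each received S265A, in which the replaced serine can no longer be phosphorylated, the phosphomimetic S265D, or S265D-H1120Y, which lacks a histidine of the catalytic site as well. The cells are 1 immortalized line in culture, and nothing in the labels says that samples of a group came from separate cultures, so the tests measure the spread between these samples, which may be technical.

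In this pathway, dimeric ligands (the TGF-betas, activins, BMPs and GDFs) bring together type I and type II receptor kinases at the cell surface. The receptors phosphorylate receptor-regulated SMADs, Smad2 and Smad3 for TGF-beta and activin and Smad1, Smad5 and Smad9 for BMPs, which enter the nucleus with Smad4. Smad6 and Smad7 inhibit the receptors, and secreted proteins such as gremlins, noggin, chordin and follistatin bind ligands and keep them from their receptors. In fat, TGF-beta and activin A are known to hold back the differentiation of preadipocytes, and several BMPs are known to favour commitment to the adipocyte lineage.

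The total behind the FPKM values was 3.10 to 5.29 Gb of mapped bases per sample, and for an exon length of 2 kb, an FPKM of 0.00944 to 0.0161 was worth 100 mapped bases. Adipocyte markers matched the labels: the summed FPKM of 6 markers was 267 and 268 in the day 0 samples and 10602 to 34245 in the other untransduced samples. Most of each sum was Fabp4, with 248 and 249 at day 0 and 7631 to 31402 in the others. Leptin (Lep) stayed at or below 0.252 in all 11. Between the day 0 samples, 0 of 34 members were 2-fold apart, against 0.510% higher and 0.0920% lower of 11951 genes. The WT samples differed from each other much more, with 9 of 35 members at least 2-fold higher and 3 lower in WT B, against 18.3% of 12019 genes at least 2-fold apart in either direction, 1317 higher and 879 lower. Each comparison that uses them is therefore given also with each WT sample alone.

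Of the 59 members, 34 had a mean FPKM of at least 0.5 over the 6 untransduced samples and entered the tests there, 35 did so over the 5 transduced samples, and 19 stayed below 0.5 in every sample. Nearly all BMP ligands were among the silent members: 9 of 10 stayed below 0.5 throughout, and the other one, Bmp8a, had at most 3.24. Bmp8b, its close paralogue, had at most 0.0183, and reads of the pair may have been shared between them by the alignment. Bmp4, a BMP known to promote adipocyte commitment, lay between 0 and 0.352. Bmp7, known as an inducer of brown fat, was listed at 0 in 10 of 11 samples.

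By contrast, all 5 receptor-regulated SMADs, Smad4, both inhibitory SMADs, 5 of 7 type I and 3 of 4 type II receptors entered the tests in the time course. The highest mean of each role over the 11 samples belonged to Tgfb1 among the TGF-beta ligands, Gdf15 among the GDFs, Bmpr1a among the type I and Tgfbr2 among the type II receptors, and Smad2 among the receptor-regulated SMADs. Smad4, the partner of all receptor-regulated SMADs, lay between 14.7 and 18.8 FPKM in all 11. A pair of members that are named for the pathway, and are not ligands, receptors or SMADs, were far above these at day 0. Fstl1, a secreted glycoprotein of the follistatin-like group, had 246 and 246, and Tgfbi, a matrix protein first found as a TGF-beta-induced transcript, had 185 and 198. The plot of levels shows 33 of the 34 members by role.

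**Figure D1:**
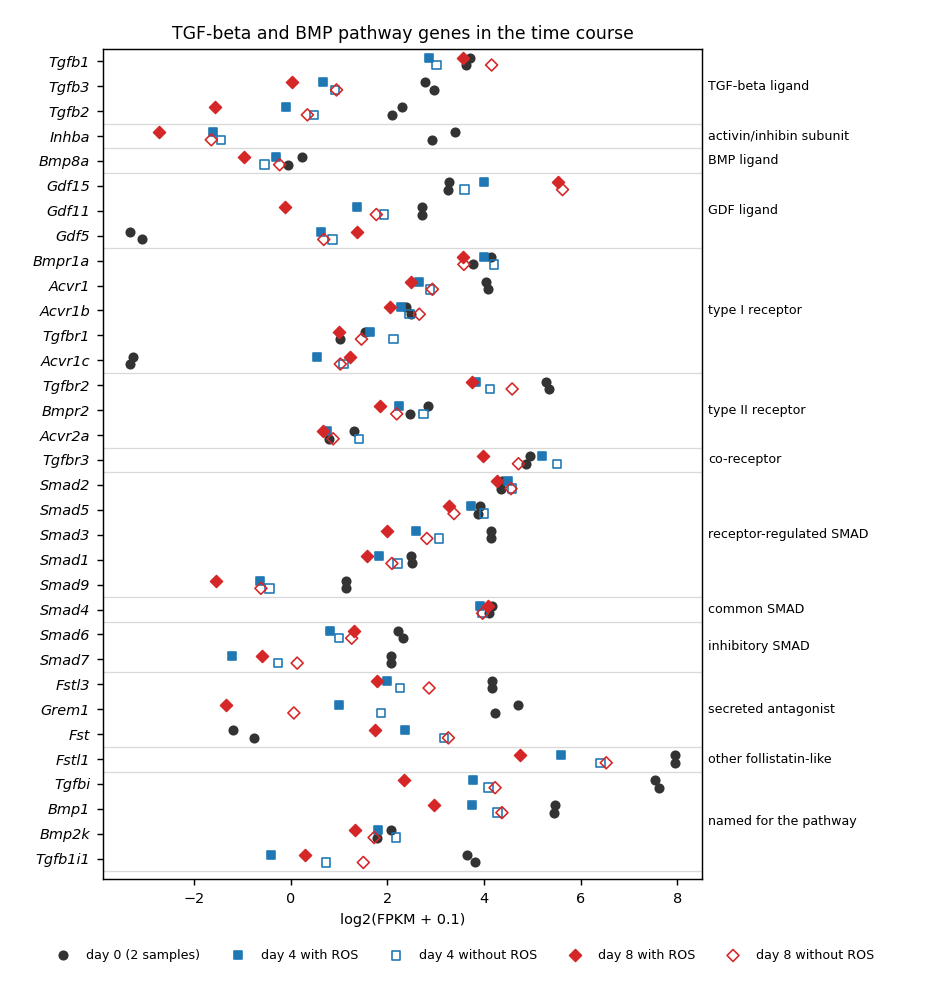
Levels of 33 of the 34 tested members in the 6 untransduced samples, as log2(FPKM + 0.1) on the horizontal axis, with members grouped by role. Each point is 1 sample, with filled squares and diamonds for ROS. Smad2 and Smad4 stay within a narrow range, whereas Inhba, Grem1 and Tgfbi lie far to the left of their day 0 values, and Acvr1c, Gdf5 and Fst to the right.

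The first comparison asked how the pathway changed as preadipocytes became adipocytes, with the samples of each day pooled whether or not ROS was present. More members fell than rose. By day 4, 3 of 34 members had risen and 14 had fallen (limma, Benjamini-Hochberg adjusted p under 0.05), against 23.0% higher and 19.3% lower of all 11951 genes tested. By day 8, 4 had risen and 18 had fallen, against 26.3% and 25.8% of all genes. The median log2 difference over the 34 members was -0.89 at day 4 and -0.84 at day 8, beside -0.0024 and -0.07 over all genes. The number of members that fell rested on both day 0 samples: without day 0 replicate 1 or 2 it was 6 or 4 at day 4 and 8 or 9 at day 8, and without the day 4 sample with ROS it was 5 at day 4. The count over all genes dropped in the same fits, from 2302 lower at day 4 to 513, 448 and 543, and from 3084 lower at day 8 to 782 and 1072. The 4 members that had risen by day 8 passed the test under every alternative setting tried, as did 8 of the 18 that had fallen, among them Acvr1, Grem1, Inhba, Smad6, Smad9, Tgfb3 and Tgfbi. These are bulk samples, in which fewer cells of a type and less RNA per cell cannot be told apart.

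The clearest rise was that of Acvr1c, the type I receptor ALK7, which is known to be expressed in mature fat cells. Its FPKM was 0.00470 and 0 at day 0, 1.36 with ROS and 2.04 without at day 4, and 2.22 with and 1.94 without at day 8. All 4 differentiated samples were thus above both preadipocyte samples, where the gene was at or near 0. The log2 difference between day 8 and day 0 was 4.41 ± 0.21 (SE, n = 2 per day), with an adjusted p of 2.09e-04 by limma. Since the day 0 level is near 0, the size depends on the pseudocount and was 1.62 with a pseudocount of 1.

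Gdf5, a BMP-like ligand with a known part in joint formation, followed the same course. It was listed at 0 and 0.0184 FPKM at day 0, and stood at 1.45 with and 1.72 without ROS at day 4 and at 2.48 and 1.51 at day 8. The log2 difference at day 8 was 4.23 ± 0.26 (adjusted p = 4.40e-04, limma), or 1.55 with a pseudocount of 1. Another GDF, Gdf9, reached 0.532 and 0.424 at day 4 from 0.106 and 0.118 at day 0, but its mean was too low for the test.

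Follistatin (Fst), which binds activins, was the single secreted antagonist called higher among the tested members. It went from 0.340 and 0.488 FPKM at day 0 to 5.06 with and 8.93 without ROS at day 4, and to 3.24 and 9.49 at day 8. Every differentiated sample was above both day 0 samples, and at both days the sample with ROS was the lower one. The log2 difference was 3.75 ± 0.56 at day 4 and 3.48 ± 0.56 at day 8 (adjusted p = 0.00635 and 0.00638, limma).

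Gdf15, a stress-responsive member that acts as a hormone on the hindbrain, rose late. It stood at 9.53 and 9.49 FPKM at day 0, at 15.8 with and 11.97 without ROS at day 4, and at 46.3 and 49.1 at day 8. Between days 4 and 8 it gained 1.79 ± 0.17 on the log2 scale (adjusted p = 0.0404, limma), and it was the 1 member of 34 called between these days, against 0.259% higher and 0.0418% lower of all genes. That call was lost without either day 0 sample or either day 4 sample, where the difference stayed at 1.59 to 1.99 with adjusted p between 0.199 and 0.328. In those fits 0 genes of all were called in either direction. It was also lost at a minimum mean FPKM of 0.1 (adjusted p = 0.0518, limma) and with the labelled ROS arm as a block (adjusted p = 0.0646, limma). The difference from day 0 to day 8 was 2.31 ± 0.17 (adjusted p = 7.42e-04). Tgfb1 showed a different order of days. It fell from 12.9 and 12.2 FPKM to 7.14 with and 8.01 without ROS at day 4 (log2 -0.73 ± 0.22, adjusted p = 0.0486, limma). This call was lost at a minimum mean FPKM of 0.1 (adjusted p = 0.0546, limma). It was also lost without either day 0 or either day 4 sample, where the difference was -0.64 to -0.81. Tgfb1 stood at 11.8 and 17.7 at day 8, where the difference from day 0 was 0.20 ± 0.22 and missed the threshold.

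Most other ligands present in preadipocytes fell. Inhba encodes the subunit of activin A, and it showed the largest fall of the 34 members at both days. Its FPKM was 10.5 and 7.44 at day 0, 0.227 with and 0.267 without ROS at day 4, and 0.0502 and 0.220 at day 8. The groups did not overlap, and the log2 difference was -4.68 ± 0.39 at day 4 and -5.35 ± 0.39 at day 8 (adjusted p = 0.00114 and 6.94e-04, limma). The related subunit gene Inhbb, too low on average for the test, had 0.748 and 1.02 at day 0 and 0.0674 to 0.375 afterwards.

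Tgfb3 had 6.73 and 7.74 FPKM at day 0 and between 0.911 and 1.83 in the differentiated samples, a log2 difference of -2.39 ± 0.32 at day 8 (adjusted p = 0.00403, limma). Tgfb2 went from 4.80 and 4.16 to 0.235 with and 1.17 without ROS at day 8, a difference of -2.81 ± 0.63 (adjusted p = 0.0165). Both TGF-beta ligands were below their day 0 range in all 4 differentiated samples. Gdf11, a close relative of myostatin, stood at 6.49 and 6.44 at day 0 and at 0.818 with and 3.31 without ROS at day 8. Its difference of -1.89 ± 0.62 lay just past the threshold (adjusted p = 0.0493, limma). This call was lost at a minimum mean FPKM of 0.1 (adjusted p = 0.0536, limma). It was also lost without either day 0 or either day 4 sample, where the difference was -1.89 to -1.90.

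Promoter sequences of the member that rose most and the 2 that fell most by day 8 are shown, because these 3 carry the largest changes in each direction. Each line holds the 250 bases just before the start of the measured transcript, read from mm9 in the direction of transcription, and capitals mark SMAD motifs. The windows are chr2:58210170-58210419 on the minus strand for Acvr1c, chr13:16106034-16106283 on the plus strand for Inhba, and chr2:113598806-113599055 on the minus strand for Grem1.
Acvr1c: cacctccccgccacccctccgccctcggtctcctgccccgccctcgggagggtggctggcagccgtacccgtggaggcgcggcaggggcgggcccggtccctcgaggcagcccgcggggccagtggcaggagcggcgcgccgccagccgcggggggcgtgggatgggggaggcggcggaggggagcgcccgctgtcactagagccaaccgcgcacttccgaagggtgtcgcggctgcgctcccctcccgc
Inhba: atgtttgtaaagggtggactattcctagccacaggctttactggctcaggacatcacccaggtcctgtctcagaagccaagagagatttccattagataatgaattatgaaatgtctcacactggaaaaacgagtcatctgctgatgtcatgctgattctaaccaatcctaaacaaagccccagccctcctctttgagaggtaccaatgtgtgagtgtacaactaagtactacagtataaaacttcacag
Grem1: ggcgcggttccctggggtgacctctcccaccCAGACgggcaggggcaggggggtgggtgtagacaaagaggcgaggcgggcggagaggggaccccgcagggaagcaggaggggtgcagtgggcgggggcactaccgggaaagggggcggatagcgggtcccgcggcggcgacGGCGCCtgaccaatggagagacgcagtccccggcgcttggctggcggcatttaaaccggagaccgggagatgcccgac
The SMAD box (CAGAC, searched on both strands) was found in 1 of these windows and the GC-rich SMAD site (GGCGCC) in the same one, that of Grem1, at 219 and 78 bases before the start. Over all 20041 coding windows of this length, 40.9% held the box and 13.2% the GC-rich site. Among the 18 members that had fallen by day 8, the box was in 7 windows and the GC-rich site in 3, and among the 4 that had risen they were in 1 and 0. An AP-1 site (TGAGTCA) lay in 3.86% of all windows and in 1 of 59 member windows, and a perfect PPAR direct repeat (a pair of AGGTCA copies with 1 base between them) in 0.0499% and in 0 of 59. These are matches of letters within a short window, not measured binding. Of the 3 printed windows, 2 were identical to a RefSeq promoter of the gene, as were 23 of the 59 member windows.

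Among the receptors, 1 of the pair that binds TGF-beta itself was called. Tgfbr2, the type II receptor, went from 38.7 and 40.2 FPKM at day 0 to 14.1 with and 17.2 without ROS at day 4 and to 13.4 and 23.8 at day 8, a log2 difference of -1.14 ± 0.29 at day 8 (adjusted p = 0.0251, limma). Tgfbr1, its type I partner, had 2.81 and 1.92 at day 0 and 1.91 to 4.25 later, and its difference at day 8 was -0.04 ± 0.29 (adjusted p = 0.908). The day 8 call of Tgfbr2 was lost without either day 0 or either day 4 sample, where the difference was -1.11 to -1.17. The difference between the changes of these 2 receptors was not tested. Acvr1, the type I receptor ALK2, fell from 16.4 and 16.9 to between 5.48 and 7.52 in the 4 differentiated samples (log2 -1.36 ± 0.19 at day 8, adjusted p = 0.00470).

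The remaining tested receptors did not pass the test at either day. Bmpr1a, a main type I receptor for BMPs, lay between 11.7 and 18.3 FPKM, Acvr1b, the main activin type I receptor, between 4.03 and 6.21, and Bmpr2 between 3.51 and 7.04. Their log2 differences at day 8 were -0.39 ± 0.18, -0.08 ± 0.23 and -0.63 ± 0.25. The co-receptor Tgfbr3 (betaglycan) had 30.6 and 29.2 at day 0, 36.4 and 45.4 at day 4, and 15.7 with and 26.1 without ROS at day 8, with a difference of -0.56 ± 0.27 at day 8.

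The SMADs behaved unevenly. Of the 5 receptor-regulated SMADs, 3 had fallen by day 8, with 1 of the TGF-beta branch and 2 of the BMP branch. Smad3 went from 17.7 and 17.5 FPKM to 3.89 with and 6.94 without ROS (log2 -1.74 ± 0.31, adjusted p = 0.00894, limma). Smad2, which receives the same signals, stood at 20.5 and 20.4 at day 0 and at 19.1 and 23.4 at day 8, with a difference of 0.05 ± 0.15 (adjusted p = 0.788). In the differentiated samples Smad2 was therefore well above Smad3, while in preadipocytes their FPKM were close. In the BMP branch, Smad9 fell from 2.10 and 2.10 to 0.243 and 0.552 (log2 -2.22 ± 0.31, adjusted p = 0.00454) and Smad5 by a smaller step from 15.01 and 14.5 to 9.61 and 10.3 (log2 -0.56 ± 0.15, adjusted p = 0.0269). Smad1 was at -0.68 ± 0.23 and missed the threshold (adjusted p = 0.0572).

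Both inhibitory SMADs fell and were called at both days. Smad7, a direct target of TGF-beta that damps its own pathway, went from 4.14 and 4.09 FPKM to 0.334 with and 0.733 without ROS at day 4 and 0.566 and 0.996 at day 8. Its log2 difference was -2.81 ± 0.38 and -2.30 ± 0.38 at these days (adjusted p = 0.00495 and 0.00706, limma). Smad6, which acts mainly on BMP signals, went from 4.57 and 4.90 to 2.36 and 2.30 at day 8 (log2 -0.99 ± 0.14, adjusted p = 0.00419).

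Grem1, a secreted BMP antagonist of preadipocytes, was nearly lost. It stood at 25.8 and 18.6 FPKM at day 0, at 1.89 with and 3.54 without ROS at day 4, and at 0.297 and 0.945 at day 8. Its fall thus continued beyond day 4, to a log2 difference of -5.09 ± 0.54 at day 8 (adjusted p = 0.00205, limma), although the step from day 4 to day 8, -2.06 ± 0.54, missed the threshold (adjusted p = 0.122). Fstl3, an activin-binding relative of follistatin, fell from 17.9 and 17.9 to 3.32 with and 7.17 without ROS (log2 -1.85 ± 0.36, adjusted p = 0.0112), opposite to Fst. Chordin (Chrd) was low, from 0.176 and 0.210 at day 0 to 0.637 and 0.920 at day 8, and noggin (Nog) was listed at 0 in all 6 untransduced samples.

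Of the 4 members named for the pathway, 3 fell, and Tgfbi and Bmp1 did so from high levels. Tgfbi went from 185 and 198 FPKM to 13.6 with and 16.9 without ROS at day 4 and to 5.00 and 18.6 at day 8 (log2 -4.29 ± 0.60, adjusted p = 0.00436, limma). Tgfb1i1, the focal adhesion adaptor Hic-5, went from 12.5 and 13.9 to 0.650 and 1.56 at day 4 and 1.13 and 2.73 at day 8 (log2 -2.83 ± 0.52 at day 8, adjusted p = 0.00953). Bmp1, which is a procollagen-cleaving protease and not a BMP, went from 44.2 and 43.5 to 7.72 with and 20.6 without ROS (log2 -1.79 ± 0.47, adjusted p = 0.0271). Fstl1 fell from 246 and 246 to 26.8 and 92.1 (log2 -2.31 ± 0.61, adjusted p = 0.0272) and so stayed among the most abundant members. The kinase gene Bmp2k lay between 2.41 and 4.42 throughout, with a difference of -0.40 ± 0.22 that missed the threshold.

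**Figure D2:**
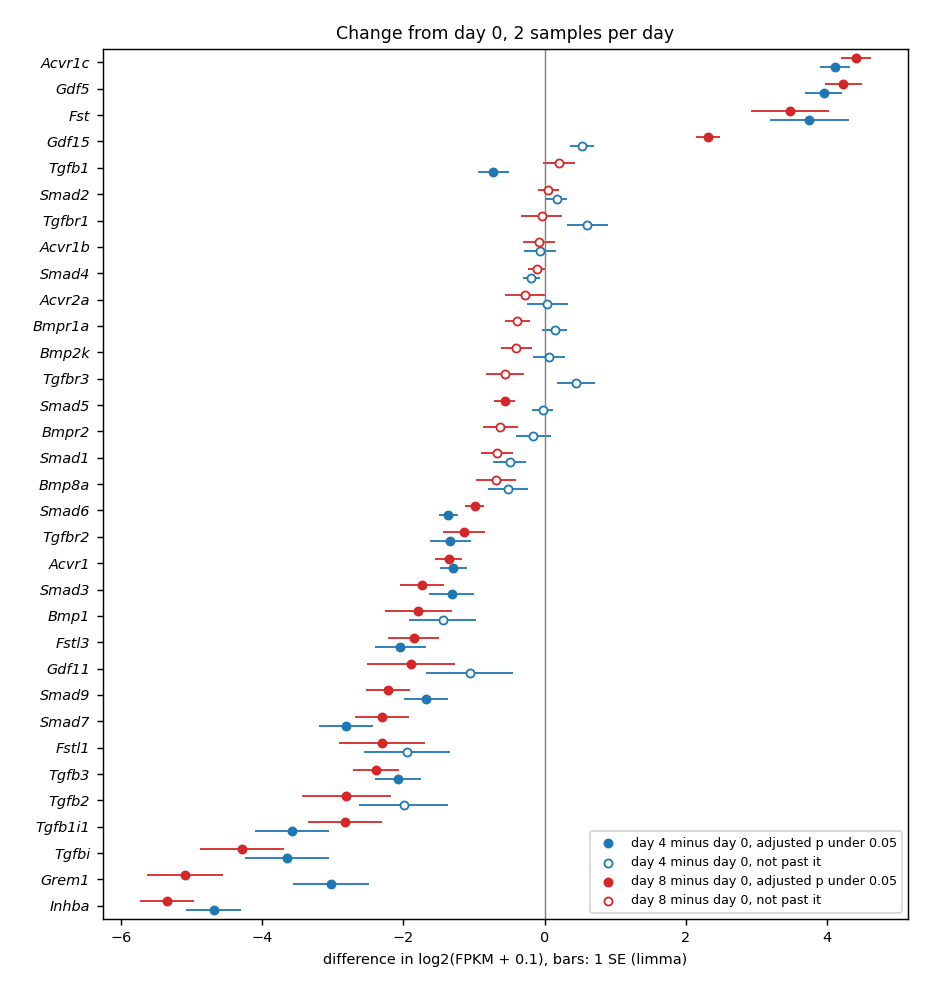
Differences in log2(FPKM + 0.1) of 33 of the 34 tested members at day 4 and day 8 from day 0 (horizontal axis), with bars of 1 SE from limma and 2 samples per day. Filled points passed an adjusted p of 0.05. Of the 33, 4 lie to the right and 17 to the left among the filled day 8 points, from -5.35 for Inhba to 4.41 for Acvr1c.

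Other genes of the pathway moved in the same comparison as follows, beside 26.3% higher and 25.8% lower of all genes at day 8. The lists overlap: Pmepa1 and Skil are both TGF-beta targets and SMAD regulators, and Bambi is both a BMP target and among the antagonists. Of 16 known TGF-beta target genes, 15 were tested and 11 had fallen by day 8, with none higher. The smooth muscle actin gene Acta2 went from 131 and 140 FPKM to 4.43 with and 12.6 without ROS. Acta2 is also a marker of myofibroblasts, and of the 3 markers of that list 2 fell and 1, Myh11, rose (log2 3.81 ± 0.21, adjusted p = 3.19e-04, limma). Among 7 tested BMP target genes, 4 had fallen and 1 had risen. Id2 and Id3, direct BMP targets, had log2 differences of -2.17 ± 0.21 and -1.35 ± 0.21, while Id1, equally a direct target, was at 0.39 ± 0.15 and was not called (adjusted p = 0.0788). At day 4 Id1 had been called higher (log2 1.06 ± 0.15, adjusted p = 0.00581, limma), with Id2 at -2.20 and Id3 at -0.97.

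Regulators of SMADs and of ligand release also changed in many cases, beside 26.3% higher and 25.8% lower of all genes at day 8. Of 11 SMAD regulators, 8 had fallen and 2 had risen by day 8, and Pmepa1, a TGF-beta-induced inhibitor, had the largest fall of the list (log2 -3.18 ± 0.17, adjusted p = 2.90e-04, limma). Of 9 tested genes for latency and ligand handling, 5 fell and 2 rose. Ltbp1, which holds latent TGF-beta in the matrix, went from 77.1 and 78.1 FPKM to 1.85 and 4.81, and Thbs1, an activator of latent TGF-beta, from 302 and 291 to 11.8 and 19.3. Among 7 other tested ligands and antagonists, 4 rose and 1 fell, and here the BMP antagonists moved in opposite directions. Chrdl1 went from 0.122 and 0.0512 to 6.02 and 3.51 (log2 4.68 ± 0.31, adjusted p = 5.30e-04), and Nbl1 from 47.5 and 49.1 to 4.25 and 11.5 (log2 -2.77 ± 0.48, adjusted p = 0.00809). Of 3 preadipocyte markers, Dlk1 fell, and Pdgfra and Cd34 missed the threshold at day 8 in opposite directions. Cd34 went from 32.3 and 36.9 to 4.52 with and 19.8 without ROS at day 8. Pdgfra rose from 11.9 and 11.8 to 31.8 with and 50.2 without ROS at day 4, where it was called higher. It stood at 18.3 and 35.2 at day 8. The part of the change in cell makeup in these results was not tested.

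The next comparison asked how ROS, which separates the beige from the white protocol, bore on the members. With ROS as a term beside day, limma called 0 of 34 members, as it did 0% of all 11951 genes in either direction, with 2 residual degrees of freedom, a smallest adjusted p of 0.0963 among the members, and 18 of 34 members at an unadjusted p under 0.05 beside 2542 of all genes. The estimate was below 0 in 31 of 34 members, with a median of -0.46. The median of all genes was also below 0, at -0.13, and their share below 0 was not counted. At day 8 alone, with 1 sample per arm and so no replicate check, 0 members were at least 2-fold higher and 10 at least 2-fold lower with ROS, against 2.02% and 9.98% of all genes. At day 4, 0 were higher and 1 lower, against 0.276% and 1.05%. Centring each sample on its median removed a shift of -0.20 in the median of all genes at day 8. It changed the split of all genes from 241 higher and 1193 lower to 385 and 849, and left 7 members lower and 0 higher. With a pseudocount of 1, 5 members were lower.

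The 10 members lower with ROS at day 8 were 2 ligands, the subunit gene Inhba, 3 secreted antagonists, Fstl1 and 3 members named for the pathway, and included no receptor or SMAD. Tgfb2 had 0.235 FPKM with ROS and 1.17 without, a log2 difference of -1.92 that was the largest. Gdf11 had 0.818 and 3.31 (-1.89), and Tgfbi 5.00 and 18.6 (-1.88). All 3 were also lower with ROS at day 4, by -0.58, -0.56 and -0.31 on the log2 scale, which is short of 2-fold. Fstl1 had 26.8 with and 92.1 without ROS at day 8 (-1.77), and Fst 3.24 and 9.49 (-1.52). Bmp1, Grem1, Tgfb1i1, Inhba and Fstl3 made up the rest, from -1.40 to -1.09. Tgfb1i1 was the member past 2-fold at both days (0.650 and 1.56 at day 4, log2 -1.15). For Inhba both day 8 values, 0.0502 and 0.220, were low. With a pseudocount of 1, Inhba (-0.22), Grem1 (-0.58), Tgfb1i1 (-0.81), Tgfb2 (-0.81) and Fstl3 (-0.92) were all below 2-fold.

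Members that rose during differentiation did not share one direction under ROS. Fst was lower with ROS at both days, whereas Gdf5 had 2.48 with and 1.51 without ROS at day 8, a log2 difference of 0.69, after -0.24 at day 4. Acvr1c was at -0.55 at day 4 and 0.19 at day 8, and Gdf15 at 0.40 and -0.08. Smad2 and Smad4 differed by -0.29 and 0.11 at day 8, and Bmpr1a by -0.02. Whether the effect of ROS differed between day 4 and day 8 was tested as an interaction, and 0 of 34 members passed limma (smallest adjusted p 0.192, 11 members at an unadjusted p under 0.05, beside 0 and 2093 of all 11951 genes, 1 residual degree of freedom).

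Of the 15 tested TGF-beta target genes, 11 were at least 2-fold lower with ROS at day 8 and 0 higher. Over all genes the shares were 9.98% and 2.02%. Among the 11 were Col1a1 (47.1 FPKM with and 170 without ROS), Timp1 (log2 -1.99) and Acta2 (-1.49). Pmepa1 was not among them (0.34). None of 7 BMP target genes passed 2-fold, with all 7 below 0 and Id1 at -0.23. In the same samples the preadipocyte markers Cd34 (-2.10) and Dlk1 (-1.04) were also 2-fold lower with ROS, Pdgfra had 18.3 FPKM with and 35.2 without, while of the 5 tested adipocyte markers Fabp4 was 2-fold higher (31402 and 7631), Adipoq and Plin1 were at 0.87 and 0.68, and Cfd and Pparg at -0.68 and -0.73 on the log2 scale. The preadipocyte markers thus were lower together with these members, whereas the adipocyte markers differed in sign, and their part in the result was not tested.

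**Figure D3:**
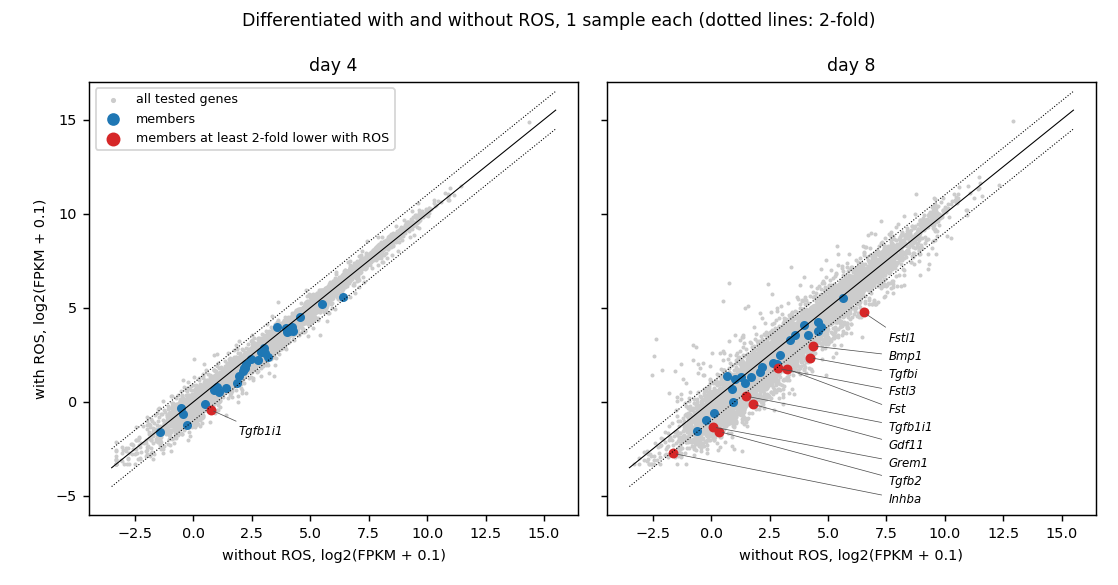
FPKM with ROS (vertical axis) against without ROS (horizontal axis) at day 4 (left) and day 8 (right), both as log2(FPKM + 0.1), with 1 sample per axis. Grey points are all 11951 tested genes, coloured points 33 of the 34 members, and dotted lines mark 2-fold. At day 8, 10 members lie below the lower line and 0 above the upper one, against 1 and 0 at day 4.

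In the transduced cells, the knocked-down gene was looked at first. Kdm3a, the mouse gene for Jmjd1a, had between 13.03 and 28.5 FPKM in the 5 transduced samples and between 15.1 and 23.2 in the 6 untransduced ones, so the ranges overlapped and the values do not show the knockdown. Whether reads from the introduced human JMJD1A were counted for Kdm3a is not known. The study itself reports efficient depletion of endogenous JMJD1A by the hairpin, with an immunoblot and qPCR. Transduced and untransduced samples differed in some marker genes. Cd68 was at 5.00 to 21.7 FPKM in transduced and 0.541 to 4.30 in untransduced samples, and Pecam1 at 0.965 to 3.47 and 0.0528 to 0.263. The highest untransduced Cd68 value, 4.30, was that of day 8 with ROS. Of the other macrophage markers, Emr1 and Ptprc were listed at 0 in all 11 samples and Csf1r was at most 0.331. Of the other endothelial markers, Cdh5 was at most 0.0101. Kdr did not follow Pecam1, with 0.00981 to 0.406 in transduced and 0.0181 to 0.567 in untransduced samples.

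The WT pair itself set the limits of what the mutants can show. Grem1 had 0.392 FPKM in WT A and 19.3 in WT B, Inhba 0.0862 and 1.65, and Bmp8a was listed at 0 in WT A and had 1.53 in WT B. Fstl3 (2.51 and 10.1), Gdf15 (13.5 and 42.6) and Fstl1 (30.9 and 88.9) were also higher in WT B, while Acvr1c (7.51 and 2.71), Smad6 (4.54 and 2.02) and Gdf5 (2.81 and 1.26) were higher in WT A. The beige markers Ucp1 (12.1 and 0.724) and Cidea (33.2 and 7.03) were higher in WT A as well.

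Against the mean of the WT samples, S265A had 3 of 35 members at least 2-fold higher and 0 lower, against 1.75% and 1.57% of 12019 genes. S265D had 4 higher and 1 lower, against 2.44% and 0.840%. S265D-H1120Y against S265D had 1 higher and 7 lower, against 2.29% and 4.64%. Each mutant was 1 sample. When limma took the spread from the WT pair alone, with 1 residual degree of freedom, it called 0 of 12019 genes in each of these comparisons, and 0 of 35 members had an unadjusted p under 0.05, beside 61, 44 and 135 of all genes. The counts also turned on the WT sample: against WT B alone, S265A had 1 member higher and 5 lower and S265D 1 and 0, beside 253 and 404, and 275 and 121, of all genes. Against WT A alone, S265A had 6 and 1 and S265D 9 and 2, beside 821 and 541, and 1008 and 492, of all genes.

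In S265A, the members past 2-fold were Fstl3 with 17.9 FPKM, Gdf15 with 65.9 and Tgfb2 with 2.45, all above both WT samples. Fstl3 was not particular to S265A. It was also 2-fold above the WT mean in S265D (13.8), and it lay above both WT samples there and in S265D-H1120Y (11.7). None of the 35 members was 2-fold past both WT samples in S265A, against 0.782% of all genes. In S265D, 1 member, Bmp8a, was 2-fold past both, at 3.24 against 0 and 1.53, against 0.641% of all genes. Grem1 in S265D had 18.1, which is 2-fold above the WT mean but slightly below WT B, and Inhba had 1.95, slightly above WT B. Gdf5 was lowest in S265D, with 0.622. Acvrl1, the type I receptor ALK1, had 0.847 and 0.567 in the WT samples, 1.10 in S265A and 0.431 in S265D, and so lay above the WT range in the first mutant and below it in the second.

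Loss of the catalytic histidine was compared with S265D, its parent. Grem1 had 18.1 FPKM in S265D and 2.73 in S265D-H1120Y (log2 difference -2.69), Bmp8a 3.24 and 0.340 (-2.92) and Inhba 1.95 and 0.598 (-1.55). In these 3 the double mutant lay between the WT samples. Another 3 members, Acvr1c, Tgfbr2 and Gdf15, were 2-fold past both WT samples in the double mutant, against 2.86% of all genes. Acvr1c had 1.06 against 2.62 in S265D, and Tgfbr2 6.98 against 15.1, which put both below the WT samples. Gdf15, at 96.7 against 37.4, was higher and had the highest of its 11 values. Tgfb3 (-1.06) and Gdf11 (-1.16) were also 2-fold lower than in S265D.

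**Figure D4:**
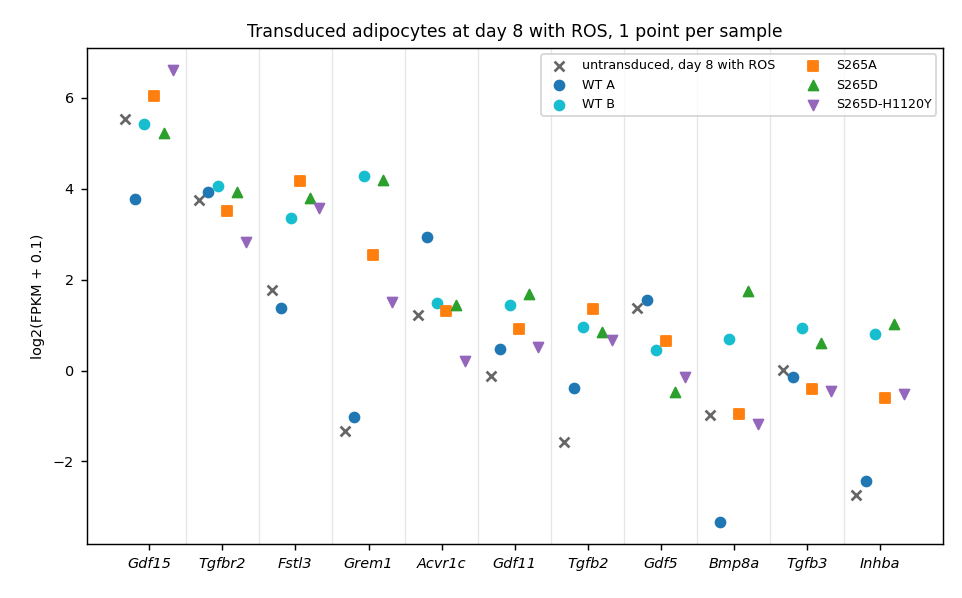
Levels of the 11 members that were at least 2-fold apart in a mutant comparison, as log2(FPKM + 0.1) (vertical axis), in the 5 transduced samples and in the untransduced sample of day 8 with ROS. Each point is 1 sample. WT A and WT B lie far apart for Grem1, Bmp8a and Inhba, and of their mutant values only those of S265D for Bmp8a and Inhba lie outside the WT pair.

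Against the untransduced sample of day 8 with ROS, limma called 0 of 35 members higher or lower in the 5 transduced samples, against 0.0334% higher and 0.0167% lower of 11981 genes, with a smallest adjusted p of 0.103. At an unadjusted p under 0.05 there were 10 members and 2646 genes. Without WT A, the number was 6 higher and 0 lower, beside 964 and 399 of all genes, and the 6 were Tgfb2, Fstl3, Smad9, Bmpr2, Grem1 and Inhba. In 16 of 35 members all 5 transduced samples were above the untransduced one, and in 3 all were below it, against 29.6% and 25.1% of all genes. All 5 were at least 2-fold above in 1 member, Tgfb2, against 3.50%, and at least 2-fold below in 0, against 0.865%. Tgfb2 had 0.235 FPKM in the untransduced sample and 0.661 to 2.45 in the transduced ones (log2 2.26 ± 0.58, adjusted p = 0.103). Fst was lower in all 5, at 0.763 to 1.76 against 3.24 (log2 -1.31 ± 0.42, adjusted p = 0.147, limma). Noggin, listed at 0 in all untransduced samples, had 0.0778 to 0.292 in the transduced ones, too low for the test.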

How the data were processed

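RNA-seq of 11 samples was used. Per the study's methods, TruSeq libraries were sequenced on an Illumina HiSeq. Reads were mapped by BWA against both UCSC transcripts and the mm9 genome, which the submitters' processing notes also name, then realigned locally and summarised by strand. The authors deposited FPKM for each transcript and a signal column with its mapped bases. Read counts were not used here, so no count test was run and no counting interval is given. The sense representative coding row stood for each gene. Coordinates in the files began 1 base before a GENCODE vM1 transcript start in 11716 of 20041 matched genes and were shifted accordingly.

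Genes with a mean FPKM of at least 0.5 were tested by limma 3.58.1 in R 4.3.3 on log2(FPKM + 0.1), which understates changes of low genes, with Benjamini-Hochberg adjustment over all tested genes. The day comparison had 3 residual degrees of freedom. For ROS within a day and for the mutants, with 1 sample each, a 2-fold difference on the same scale was used. The single untransduced sample set against the 5 transduced ones was assumed to vary as they did. The limma script was tested on simulated data. Alternatives changed the pseudocount, minimum, transcript, centring, prior, ROS term and samples, and, added after seeing the data, blocked on the labelled arm. Named genes were members past the test or the 2-fold limit, the 3 largest rises and falls of each comparison, the highest member of each role, and genes of fixed pathway lists. Some items are not reported here. Further members were named after their values were seen to complete a role. Members and lists were chosen with earlier results of these data known. Python 3.11.15, numpy 2.4.6, pandas 2.3.3 and matplotlib 3.10.9 were used.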

Additional observations from a re-analysis of the deposited data

Results flagged for a closer look

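Acvrl1, the type I receptor ALK1, differed from the WT mean in opposite directions in the phosphorylation mutants, by 0.60 on the log2 scale in S265A and by -0.58 in S265D, with 1 sample each. Its FPKM was 0.847 and 0.567 in the WT samples, 1.10 in S265A and 0.431 in S265D. The difference between the mutants was not tested.

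The antisense strand of Bmp2k, which enters no comparison, carried up to 1.24 FPKM, in S265D-H1120Y, beside 4.93 on the sense strand of that sample. In the 2 day 0 samples the antisense FPKM was 0.111 and 0.103, and in the other transduced samples it was 0.280 to 0.604. No other member had an antisense FPKM above 0.654.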

How the results depend on the processing

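Each of the 9 comparisons was recomputed under the alternatives. Leaving out each sample in turn gave 3 to 5 members higher and 4 to 20 lower at day 4 against day 0 (all genes 1053 to 3511 and 448 to 3562), 4 to 5 and 8 to 21 at day 8 against day 0 (1539 to 3461 and 782 to 4432), and 0 to 2 and 0 to 9 at day 8 against day 4 (0 to 975 and 0 to 1671). For ROS it gave 0 higher and 0 to 10 lower (0 to 272 and 0 to 1240). The 10 came without either day 4 sample, which leaves the ROS difference to day 8 alone and 1 residual degree of freedom. Leaving out a WT sample gave 1 to 6 higher and 1 to 5 lower for S265A (253 to 821 and 404 to 541) and 1 to 9 and 0 to 2 for S265D (275 to 1008 and 121 to 492). Leaving out a transduced sample gave 0 to 6 higher and 0 lower (0 to 964 and 0 to 399).

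A minimum mean FPKM of 0.1 gave 8 members in place of 4 higher at day 8 against day 0, 0 in place of 1 at day 8 against day 4, and 1 in place of 0 higher with ROS at day 8, beside 3370, 23 and 325 of all 13337 genes. A ROS term gave 3 in place of 1 higher and 2 in place of 0 lower at day 8 against day 4, beside 488 and 422 of all genes. A pseudocount of 1 gave 5 in place of 10 lower with ROS at day 8, 0 in place of 1 lower in S265D and 3 in place of 7 lower in S265D-H1120Y against S265D. Over all genes these were 598 in place of 1193, 29 in place of 101, and 291 in place of 558. The cause was not tested. Directions turned when 1 sample was left out, with values from 0.12 (without the day 8 sample with ROS) to -1.78 for Gdf11 at day 8 against day 4, and for ROS from -0.085 (without a day 4 sample) to 0.40 for Gdf15, and, lowest without a day 8 sample, from -0.24 to 0.69 for Gdf5 and from -0.047 to 0.11 for Smad4. Grem1 in S265D was at -0.091 without WT A and at 5.21 without WT B. These values are on the log2 scale. Groups of 1 or 2 samples limit every comparison, and members below a mean FPKM of 0.5 were not tested.

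With the labelled ROS arm as a replicate block at all 3 days, chosen after seeing the data, 2 residual degrees of freedom remained. This gave 3 members higher and 17 lower at day 4 against day 0, 4 and 19 at day 8 against day 0, and 0 and 0 at day 8 against day 4, beside 2572 and 2226, 2999 and 2977, and 13 and 0 of all genes. Across 11951 genes, deviations of the samples labelled plus from their day's mean correlated at -0.27 between days 0 and 4, -0.035 between days 0 and 8, and 0.54 between days 4 and 8, so the arms were not treated as pairs. The mutants share no replicate numbers with the WT samples.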
